A study of Arabidopsis thaliana with 16 samples.

Results

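The 56 Arabidopsis thaliana genes described here encode the cyclins, cyclin-dependent kinases (CDKs), CDK inhibitors, replication proteins and mitotic regulators that carry a root cell through its division cycle. They were chosen by locus tag for their family and the cycle phase they act in. The rule names no measured value, but the list was drawn up with earlier results of these data known. They are 56 of the 33518 loci in the count tables. They fall into 7 roles: 19 genes of mitosis and cytokinesis, 6 of the passage from S phase to G2, 11 of DNA replication, 3 of the E2F and WEE1 group, 8 of G1, 7 CDK inhibitors, and the 2 CCS52A activators of the anaphase-promoting complex. All 56 passed the filter on low counts, which kept 22304 loci for testing.

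Messenger RNA (polyA) was sequenced from roots of seedlings kept upright on MS medium for 6 d, a stock salt medium for plants, and then left untreated or exposed to ethylene at 10 ppm for 4 h. The series asks how EIN3/EIL1 and RHD6/RSL1 act together in the growth of root hairs under ethylene. There were 4 genotypes and 8 groups of 2 libraries. Col-0 was the wild type. The ein3eil1 mutant carries mutations in EIN3 and EIL1, which encode the central transcription factors of the ethylene pathway, and the rhd6rsl1 mutant in RHD6 and RSL1, basic helix-loop-helix factors that start root hair formation. The ein3eil1rhd6rsl1 mutant carries all of these mutations. The alleles were not given in the sources used here. A root holds dividing cells at its tip and many more that no longer divide, so in these bulk samples fewer dividing cells and less RNA per cell cannot be told apart.

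In plants, D-type cyclins with CDKA;1 start the cycle in G1 and, through the E2F factors, switch on the genes of DNA replication. A-type cyclins and B1-type CDKs then take the cell from S phase to G2, and B-type cyclins with B2-type CDKs drive mitosis, whose genes share the MYB-bound mitosis-specific activator (MSA) element with the core AACGG. KRP and SIAMESE-family proteins inhibit the CDKs, and CCS52A proteins direct mitotic cyclins to destruction, which ends division and lets cells enter endoreplication.

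The promoters of the mitosis and replication genes carried different sequence elements, described here by letters alone. Of the 19 mitosis genes, 12 (63.2%) had AACGG on either strand in the 250 bases before the gene's start, and 7 (36.8%) had it at least 2 times, against 20.6% and 3.62% of the 27443 protein-coding genes. Of the 11 replication genes, 5 (45.5%) held an E2F-type word, TTTCCCGC, TTTGGCGC, TTTGCCGC or TTTCGCGC, against 1.41% of all protein-coding genes. These 5 were MCM2, MCM3, MCM4, MCM5 and MCM6, with 1 match each, and no mitosis gene held such a word. No E2F-type word contains AACGG or CCGTT. The 4 B1-type cyclins are shown to compare members of 1 family with and without the core, and MCM2 and MCM5 to show the replication word. The windows were read from RefSeq's TAIR10.1 annotation by locus tag, run 5′ to 3′ on the gene's own strand and end at the base before its start. Capitals mark the matches to AACGG (or CCGTT, the same core on the other strand) in the cyclins and to the E2F-type word, on either strand, in the MCM genes.
CYCB1;1 (chr4:17624309-17624558, minus strand): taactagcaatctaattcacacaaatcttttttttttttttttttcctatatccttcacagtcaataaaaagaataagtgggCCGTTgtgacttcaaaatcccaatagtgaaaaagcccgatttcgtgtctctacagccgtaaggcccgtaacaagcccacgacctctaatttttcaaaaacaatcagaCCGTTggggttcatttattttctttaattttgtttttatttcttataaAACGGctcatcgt
CYCB1;2 (chr5:1861704-1861953, minus strand): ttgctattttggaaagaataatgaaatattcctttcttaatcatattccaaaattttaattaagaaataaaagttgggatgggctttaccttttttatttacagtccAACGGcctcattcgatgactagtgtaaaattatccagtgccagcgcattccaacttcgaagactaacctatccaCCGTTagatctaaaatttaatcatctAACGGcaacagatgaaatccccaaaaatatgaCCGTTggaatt
CYCB1;3 (chr3:3627274-3627523, minus strand): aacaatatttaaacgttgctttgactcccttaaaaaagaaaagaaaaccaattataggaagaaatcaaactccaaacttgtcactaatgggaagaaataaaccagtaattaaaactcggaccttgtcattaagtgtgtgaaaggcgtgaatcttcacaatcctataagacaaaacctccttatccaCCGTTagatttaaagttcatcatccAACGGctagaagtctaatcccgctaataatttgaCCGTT
CYCB1;4 (chr2:11400868-11401117, plus strand): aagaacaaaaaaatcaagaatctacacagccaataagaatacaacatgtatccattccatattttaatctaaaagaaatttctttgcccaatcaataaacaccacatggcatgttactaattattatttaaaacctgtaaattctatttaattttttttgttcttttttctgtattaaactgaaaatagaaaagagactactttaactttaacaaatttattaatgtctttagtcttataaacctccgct
MCM2 (chr1:16969964-16970213, plus strand): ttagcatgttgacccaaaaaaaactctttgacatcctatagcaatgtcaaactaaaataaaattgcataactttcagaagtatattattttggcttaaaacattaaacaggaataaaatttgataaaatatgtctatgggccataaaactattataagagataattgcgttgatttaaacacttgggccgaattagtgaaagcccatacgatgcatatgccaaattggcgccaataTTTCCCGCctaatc
MCM5 (chr2:3527501-3527750, minus strand): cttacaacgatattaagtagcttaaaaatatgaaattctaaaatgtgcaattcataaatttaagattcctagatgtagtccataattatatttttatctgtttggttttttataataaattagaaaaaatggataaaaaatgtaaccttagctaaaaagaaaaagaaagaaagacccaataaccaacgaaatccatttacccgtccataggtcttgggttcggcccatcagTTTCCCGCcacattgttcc
CYCB1;1 and CYCB1;3 had 3 matches each and CYCB1;2 had 4, whereas CYCB1;4 had 0 in this window. In Col-0 the log2 fold change with ethylene was -0.67 for CYCB1;1, -0.97 for CYCB1;2, -0.64 for CYCB1;3 and -0.39 for CYCB1;4. Elsewhere in the mitosis list, CDC20.1 (-0.95 ± 0.13), CDC20.2 (-0.89 ± 0.11) and CDKB2;1 (-0.74 ± 0.098) had 0 matches with larger falls than CYCB1;4, and CYCB2;2 (-0.39 ± 0.11) had 3 matches with the same fall. These falls are of Col-0 alone, where ethylene and the sets of libraries described below cannot be told apart. In the average over Col-0 and rhd6rsl1 given below, CDKB2;1 and CYCB1;4 lay closer together and CYCB2;2 was not called. A match is a description of the letters and was not tested as a binding site.

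**Figure D1:**
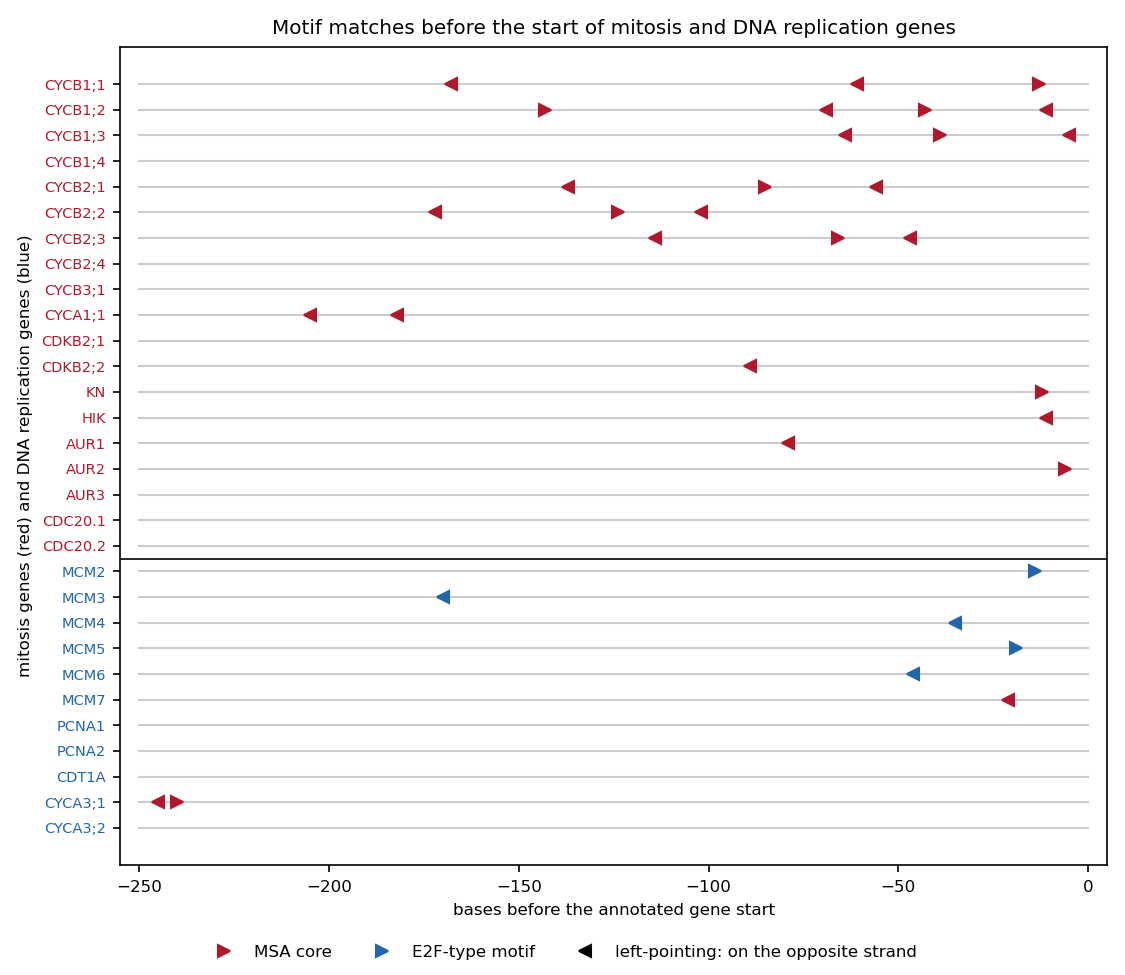
Matches to the MSA core AACGG and to the E2F-type words in the 250 bases before the start of each mitosis gene and each replication gene, placed by distance in bases from the gene start, with left-pointing marks for the opposite strand. Core matches lie in 12 of the 19 mitosis windows, and E2F-type matches in 5 of the 11 replication windows and in no mitosis window.

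The 16 libraries held 33.0 to 45.0 M counted reads each, M standing for 1000000. Levels are given in CPM, counts per M counted reads, with TMM-scaled library sizes, and fold changes as log2 differences ± standard error. Groups that overlapped or lay apart are described by their 2 libraries each, with no test. So few libraries can lie apart without an effect, and the share of all loci apart within a genotype was not counted. A gene was called when its adjusted p lay below 0.05 in edgeR's quasi-likelihood test over the 22304 loci. Letters in the file codes, whose meaning was not given, split the libraries into 2 sets: one held Col-0 and ein3eil1 with ethylene and untreated rhd6rsl1 and ein3eil1rhd6rsl1, and the other held the other 4 groups. Within 1 genotype the ethylene effect and the set cannot be told apart. A set effect that adds on the log scale cancels in the average over Col-0 and rhd6rsl1, in the average over ein3eil1 and ein3eil1rhd6rsl1, and in the difference between genotypes with and without EIN3 and EIL1, and these comparisons lead here. The mutated genes were read as a check of the labels. EIN3 stood at 148 to 185 CPM in genotypes with it and 28.7 to 41.6 CPM in those labelled mutant, and EIL1 at 61.3 to 75.6 and 12 to 29.7 CPM. Without ethylene RHD6 was at 24.2 and 23.5 CPM in Col-0 and 7.92 and 7.93 CPM in rhd6rsl1, and RSL1 at 5.86 and 5.84 and then 1.86 and 2 CPM. With ethylene they did not separate these genotypes: RHD6 was at 14.2 and 15.7 CPM in Col-0 and 14.8 and 15.6 CPM in rhd6rsl1, and RSL1 at 1.09 and 1.75 and then 1.75 and 1.24 CPM. These transcripts therefore do not check the label of the rhd6rsl1 libraries with ethylene, which each average over Col-0 and rhd6rsl1 uses. Photosynthesis transcripts (16 genes) summed to 1340 CPM in Col-0 with ethylene replicate 1 and 2000 CPM in ein3eil1rhd6rsl1 with ethylene replicate 1, against 312 to 841 CPM in the other 14 libraries. Root meristem markers were present in every library, with PLT1, PLT2, WOX5, SHR and SCR summing to 104 to 156 CPM.

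Ethylene lowered most of these genes in roots with EIN3 and EIL1. Averaged over Col-0 and rhd6rsl1, 31 of the 56 fell and 4 rose, against 22.4% of all loci tested that were called lower and 18.9% called higher. Their median log2 fold change was -0.29, beside 0.00 over all loci tested. Averaged over ein3eil1 and ein3eil1rhd6rsl1, 4 of the 56 fell and 1 rose, against 4.57% and 3.32% of all loci tested, with a median of -0.04. The 4 that fell there were CDKB1;1, PCNA1, PCNA2 and CYCD3;2, and the 1 that rose was SIM. This small count rested on single libraries: none was called without ein3eil1 with ethylene replicate 1, without untreated ein3eil1 replicate 1 or without ein3eil1rhd6rsl1 with ethylene replicate 2, and 2 and 9 were called without untreated ein3eil1rhd6rsl1 replicate 2 and replicate 1.

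The difference of those 2 averaged responses, with minus without EIN3 and EIL1, was called below 0 for 18 of the 56 genes and above 0 for 2, against 15.3% and 11.2% of all loci tested. Its median over the 56 genes was -0.23, and 0.00 over all loci. The count of 20 called genes fell to 13 without untreated Col-0 replicate 1 or without ein3eil1rhd6rsl1 with ethylene replicate 1, and to 12 without ein3eil1 with ethylene replicate 2. Taken in each background, the difference was called for 9 genes between Col-0 and ein3eil1, all below 0, against 7.64% of loci called below 0 and 4.58% above. Between rhd6rsl1 and ein3eil1rhd6rsl1 it was called below 0 for 6 genes and above 0 for 1, against 10.9% and 6.89% of loci. The count of 9 fell to 5 without ein3eil1 with ethylene replicate 2. The count of 7 fell to 4 without ein3eil1rhd6rsl1 with ethylene replicate 1, untreated ein3eil1rhd6rsl1 replicate 2 or untreated rhd6rsl1 replicate 1, and to 3 without rhd6rsl1 with ethylene replicate 2. The 2 backgrounds themselves were called different for 0 of the 56 genes by edgeR, against 0.305% of all loci, and for 0 by DESeq2. At an unadjusted p below 0.05 there were 0, against 5.67% of all loci. All 19 mitosis genes still had the more negative difference in the Col-0 background, by -0.08 ± 0.27 (AUR1) to -0.84 ± 0.44 (CYCB2;1). The other genes took both signs, such as -0.24 for PCNA1 and 0.35 for CDT1A. The shared direction of the mitosis genes was not tested.

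**Figure D2:**
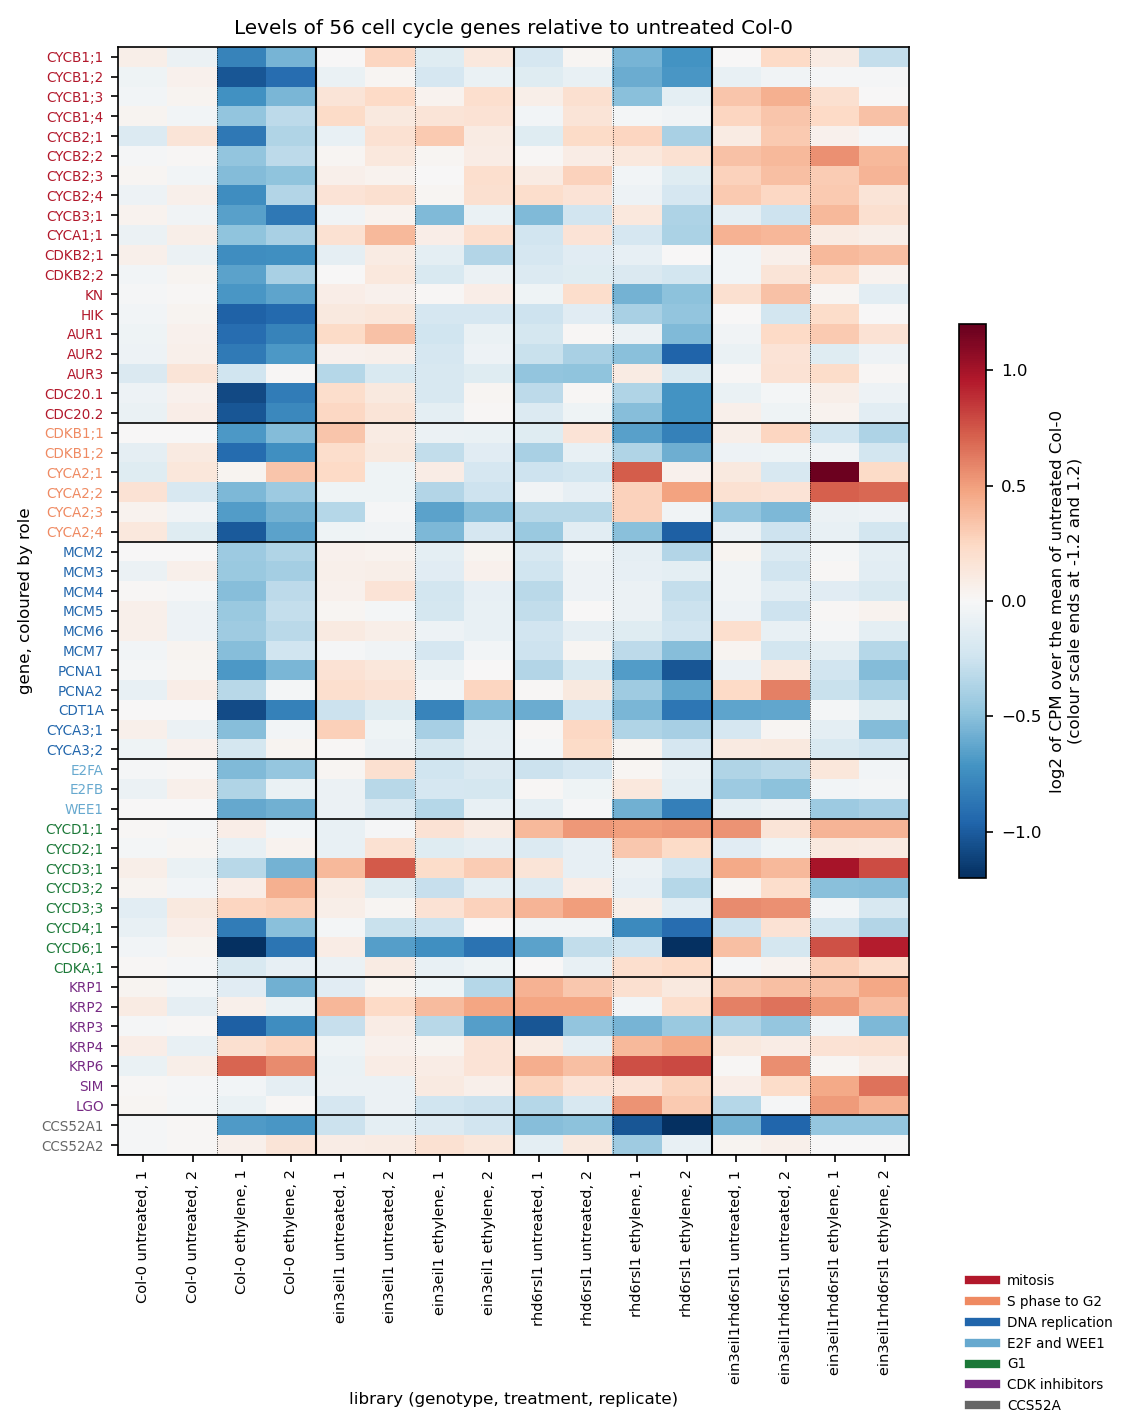
Level of each of the 56 genes (rows, ordered by role) in each of the 16 libraries (columns), as log2 of CPM over the gene's mean in untreated Col-0, with the colour scale ending at -1.2 and 1.2. Most mitosis rows are low in both Col-0 libraries with ethylene, and lie nearer to 0 in the ein3eil1 and ein3eil1rhd6rsl1 libraries with ethylene.

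Within single genotypes, where treatment and set cannot be told apart, the counts differed widely. In Col-0, 37 of the 56 genes fell with ethylene and 1 rose, against 15.9% and 13.7% of all loci tested. In rhd6rsl1, 16 fell and 8 rose, against 21.5% and 18.0%, and the total of 24 dropped to 13 without untreated rhd6rsl1 replicate 2. In ein3eil1rhd6rsl1, 7 fell and 10 rose, against 12.4% and 11.5%, and the total of 17 dropped to 9 without either ein3eil1rhd6rsl1 with ethylene replicate 1 or untreated ein3eil1rhd6rsl1 replicate 2, and to 10 without ein3eil1rhd6rsl1 with ethylene replicate 2. In ein3eil1, edgeR called 0 of the 56 genes, against 0.623% of all loci. There, 11 genes had an unadjusted p below 0.05, all lower with ethylene, against 7.15% of all loci lower at that threshold, and DESeq2 called 1, CDT1A, also lower.

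**Figure D3:**
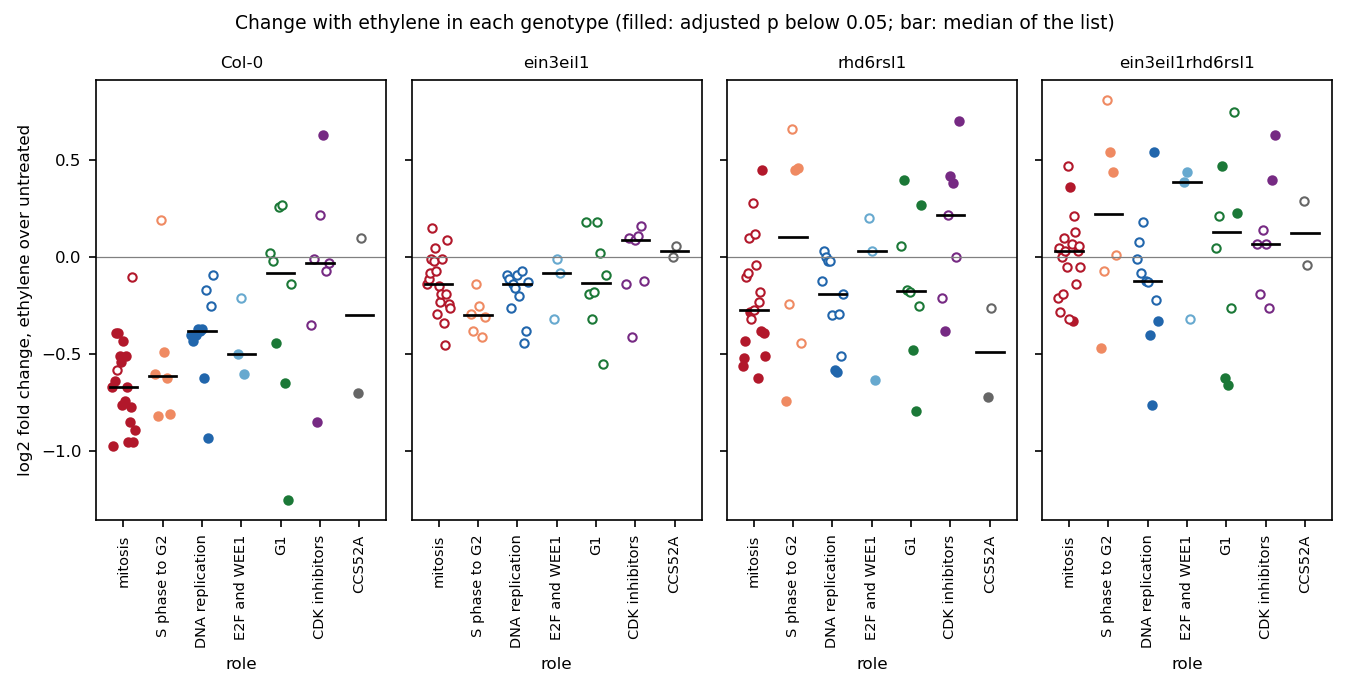
The log2 fold change with ethylene of each of the 56 genes in each of the 4 genotypes, by role, with filled points for called genes and a bar at the median of each role. The mitosis genes centre on -0.67 in Col-0 and -0.14 in ein3eil1, and no gene is filled in ein3eil1.

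Most genes of mitosis and cytokinesis fell with ethylene. Averaged over Col-0 and rhd6rsl1, 15 of the 19 fell with ethylene, with a median log2 fold change of -0.43, and the 4 that were not called were CYCB2;1 (-0.33 ± 0.16), CYCB2;2 (-0.14 ± 0.074), CYCB3;1 (-0.24 ± 0.13) and AUR3 (0.17 ± 0.12). Of all loci tested, 22.4% were called lower in this average. The summed level of the 19 genes was 416 and 429 CPM in untreated Col-0 and 244 and 270 CPM with ethylene. In rhd6rsl1 the sum was 383 and 427 CPM untreated and 348 and 322 CPM with ethylene. Both Col-0 libraries with ethylene and both rhd6rsl1 libraries with ethylene lay below their untreated pairs, and the fall was larger in Col-0. The set letters run the opposite way in these genotypes, so genotype and set cannot be told apart in the size of the fall. A set effect that adds on the log scale cancels in the difference between backgrounds given above. There all 19 genes lay below 0 and none was called. In ein3eil1 the sum was 450 and 463 CPM untreated and 395 and 423 CPM with ethylene, and in ein3eil1rhd6rsl1 447 and 466 CPM untreated and 477 and 446 CPM with ethylene. The ein3eil1 libraries with ethylene were lower by a smaller step, and those of ein3eil1rhd6rsl1 overlapped. The difference of responses with and without EIN3 and EIL1 was called below 0 for 11 of the 19, with a median of -0.37. That count was 7 when any 1 of 9 libraries was left out: Col-0 with ethylene replicate 1, untreated Col-0 replicates 1 and 2, ein3eil1 with ethylene replicate 2, untreated ein3eil1 replicate 1, ein3eil1rhd6rsl1 with ethylene replicate 1, untreated ein3eil1rhd6rsl1 replicate 1, and untreated rhd6rsl1 replicates 1 and 2.

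The B-type cyclins are the regulatory partners of the mitotic CDKs, and 6 of the 9 in the mitosis list fell in the average over Col-0 and rhd6rsl1. CYCB1;2 (AT5G06150) stood at 34.8 and 37.1 CPM in untreated Col-0 and 17.6 and 19.1 CPM with ethylene, and at 32.3 and 33.7 and then 23.8 and 22.2 CPM in rhd6rsl1. CYCB1;2 in ein3eil1 was at 33.9 and 36.4 CPM untreated and 31.3 and 34 CPM with ethylene, and in ein3eil1rhd6rsl1 at 33.8 and 34.9 and 35.6 and 35.6 CPM. The groups did not overlap in Col-0 and rhd6rsl1, where ethylene gave the lower values, overlapped in ein3eil1 and lay slightly higher with ethylene in ein3eil1rhd6rsl1. CYCB1;2 had an averaged fold change of -0.74 ± 0.061 with EIN3 and EIL1 (edgeR adjusted p = 2.5e-08) and -0.03 ± 0.06 without them (edgeR adjusted p = 0.81), and their difference was -0.72 ± 0.085 (edgeR adjusted p = 6e-06). Among its relatives the same averaged fold change was -0.61 ± 0.11 for CYCB1;1, -0.53 ± 0.089 for CYCB1;3 and -0.24 ± 0.066 for CYCB1;4, all called. In the B2 class, CYCB2;3 (-0.39 ± 0.067) and CYCB2;4 (-0.43 ± 0.09) were called and CYCB2;1 and CYCB2;2 were not. For CYCB2;3, 13.7% of its 100-base windows are shared with the neighbouring locus AT1G20590, so its count is uncertain to that extent.

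CDC20.1 and CDC20.2, activators of the anaphase-promoting complex in mitosis, lie next to each other in the genome and share 20.6% and 21.3% of their 100-base windows, so reads may be split between them. CDC20.1 (AT4G33270) was at 45.4 and 49 CPM in untreated Col-0 and 22.4 and 26.3 CPM with ethylene, and at 38.1 and 47.6 and then 36.7 and 28.6 CPM in rhd6rsl1. CDC20.1 in ein3eil1 was at 54.5 and 51.3 CPM untreated and 41.5 and 47.8 CPM with ethylene, and in ein3eil1rhd6rsl1 at 44.5 and 46.4 and 49.5 and 45.4 CPM. The values with ethylene lay below the untreated ones without overlap in Col-0, rhd6rsl1 and ein3eil1, and overlapped in ein3eil1rhd6rsl1. CDC20.1 had an averaged fold change with EIN3 and EIL1 of -0.67 ± 0.09 (edgeR adjusted p = 9.9e-06), and the difference from the genotypes without them -0.58 ± 0.13 (edgeR adjusted p = 0.0021). CDC20.2 (AT4G33260) was at 31.5 and 35.2 CPM in untreated Col-0 and 16.3 and 19.6 CPM with ethylene, and at 29.8 and 32.3 and then 23.4 and 20.3 CPM in rhd6rsl1. In ein3eil1 its levels were 39.7 and 37 CPM untreated and 30.6 and 33.5 CPM with ethylene, and in ein3eil1rhd6rsl1 34.8 and 32.3 and 34.2 and 30.4 CPM. As for CDC20.1, the groups were apart in 3 genotypes and overlapped in ein3eil1rhd6rsl1. Its averaged fold change was -0.70 ± 0.078 (edgeR adjusted p = 1.3e-06) and the difference -0.54 ± 0.11 (edgeR adjusted p = 0.0012).

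KN (KNOLLE, AT1G08560), the syntaxin that fuses vesicles at the cell plate, was at 38.9 and 39.6 CPM in untreated Col-0 and 24.1 and 25.3 CPM with ethylene, and at 38 and 45.5 and then 26.4 and 28 CPM in rhd6rsl1. KN in ein3eil1 was at 41.4 and 40.7 CPM untreated and 39.6 and 41.6 CPM with ethylene, and in ein3eil1rhd6rsl1 at 44.8 and 49.9 and 39.8 and 35.8 CPM. The groups overlapped only in ein3eil1. KN had an averaged fold change with EIN3 and EIL1 of -0.64 ± 0.069 (edgeR adjusted p = 7e-07) and the difference -0.47 ± 0.096 (edgeR adjusted p = 0.0013). Of KN's 100-base windows, 28.4% are shared with the gene on the opposite strand, AT1G08550, and the strand setting of the counting was not given. HIK (HINKEL), a kinesin of cytokinesis, fell in the same average (-0.59 ± 0.067), with a difference of -0.53 ± 0.094, also called. The Aurora kinases act on chromosomes and the cell plate. AUR1 (-0.52 ± 0.098) and AUR2 (-0.58 ± 0.1) fell, and AUR3 was not called in the average and rose in rhd6rsl1 (0.45 ± 0.17). AUR1 and AUR2 share 13.5% and 31.4% of their windows with opposite-strand genes. The mitotic kinases CDKB2;1 (-0.31 ± 0.069) and CDKB2;2 (-0.27 ± 0.077) fell by smaller steps. CDKB2;1 moved both ways within genotypes, -0.74 ± 0.098 in Col-0 and 0.36 ± 0.095 in ein3eil1rhd6rsl1, both called. It was -0.23 in ein3eil1 and 0.12 in rhd6rsl1, so genotype and set cannot be told apart.

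Among the 6 genes between S phase and G2, 3 fell in the average over Col-0 and rhd6rsl1, CDKB1;1, CYCA2;4 and CDKB1;2, and the other A2-type cyclins were not called. Of all loci tested, 22.4% were called lower in that average. CDKB1;1 (AT3G54180), a plant-specific CDK of G2 that also restrains endoreplication, was at 21.2 and 21.1 CPM in untreated Col-0 and 13.1 and 14.7 CPM with ethylene, and at 19.1 and 23.6 and then 13.5 and 12.1 CPM in rhd6rsl1. CDKB1;1 in ein3eil1 was at 26.6 and 22.7 CPM untreated and 20.12 and 20 CPM with ethylene, and in ein3eil1rhd6rsl1 at 22.2 and 25.3 and 17.9 and 16.4 CPM. The libraries with ethylene were lower without overlap in all 4 genotypes. CDKB1;1 had an averaged fold change of -0.67 ± 0.085 with EIN3 and EIL1 (edgeR adjusted p = 5.8e-06) and -0.38 ± 0.083 without them (edgeR adjusted p = 0.014). The difference of -0.29 ± 0.12 was not called (edgeR adjusted p = 0.085). CDKB1;1 thus fell with and without EIN3 and EIL1, and the latter call was lost without ein3eil1 replicate 1 of either treatment, ein3eil1rhd6rsl1 with ethylene replicate 2 or untreated ein3eil1rhd6rsl1 replicate 2. Its paralog CDKB1;2 (AT2G38620) was at 11.6 and 13.5 CPM in untreated Col-0 and 6.65 and 7.53 CPM with ethylene, and at 9.58 and 11.8 and then 9.76 and 8.36 CPM in rhd6rsl1. CDKB1;2 in ein3eil1 was at 14.5 and 13.6 and then 10.2 and 11.4 CPM, and in ein3eil1rhd6rsl1 at 12 and 12.1 and 12.2 and 10.8 CPM. Its groups were apart in Col-0 and ein3eil1 and overlapped in both genotypes with rhd6rsl1. Its averaged fold change with EIN3 and EIL1 was -0.53 ± 0.098 (edgeR adjusted p = 0.00031), and 10.6% of its windows are shared with the opposite-strand gene AT2G38630.

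CYCA2;4 (AT1G80370), an A-type cyclin of the S-to-G2 passage, was at 17.5 and 14.4 CPM in untreated Col-0 and 7.94 and 10.2 CPM with ethylene, and at 11.7 and 14.6 and then 11.3 and 8.11 CPM in rhd6rsl1. CYCA2;4 in ein3eil1 was at 15.4 and 15.5 and then 11 and 13.9 CPM, and in ein3eil1rhd6rsl1 at 15.2 and 13.4 and 15 and 13.7 CPM. The values overlapped only in ein3eil1rhd6rsl1. CYCA2;4 had an averaged fold change of -0.63 ± 0.12 (edgeR adjusted p = 0.00046) and the difference -0.48 ± 0.17 (edgeR adjusted p = 0.047). The call on the difference was lost when any 1 of 10 libraries was left out, with adjusted p from 0.067 to 0.16, with the replicate block (0.055), on the first transcript model (0.051) and without both photosynthesis-rich libraries (0.19). It held without Col-0 with ethylene replicate 2, untreated Col-0 replicate 2, ein3eil1 with ethylene replicate 1, untreated ein3eil1rhd6rsl1 replicate 1, rhd6rsl1 with ethylene replicate 1 or untreated rhd6rsl1 replicate 1. CYCA2;2 and CYCA2;3 moved in opposite directions in the genotypes: CYCA2;3 was -0.62 ± 0.12 in Col-0 and 0.46 ± 0.12 in rhd6rsl1, and CYCA2;2 was -0.49 ± 0.13 and 0.45 ± 0.13, all called. The averages were -0.08 ± 0.085 and -0.02 ± 0.093, so for both genes genotype and set cannot be told apart.

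Most of the DNA replication genes also fell, with a median nearer to 0. Averaged over Col-0 and rhd6rsl1, 9 of the 11 fell, against 22.4% of all loci tested, with a median log2 fold change of -0.26. The exceptions were MCM5 (-0.19 ± 0.077) and CYCA3;2 (-0.14 ± 0.075). The count of 9 rested in part on single libraries: it was 5 without Col-0 with ethylene replicate 1, untreated Col-0 replicate 1 or untreated rhd6rsl1 replicate 2, and 4 without rhd6rsl1 with ethylene replicate 2. Of the 6 MCM genes, which encode the subunits of the replicative helicase, MCM2, MCM3, MCM4, MCM6 and MCM7 fell, from -0.20 for MCM3 to -0.33 for MCM7. In Col-0 alone all 6 MCM genes fell, from -0.37 for MCM5 to -0.43 for MCM3, and the total of 8 replication genes called there was 3 without Col-0 with ethylene replicate 1 and 4 without untreated Col-0 replicate 1.

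CDT1A (AT2G31270), which loads the helicase at origins, was at 42.8 and 42.9 CPM in untreated Col-0 and 20.4 and 24.5 CPM with ethylene, and at 28.2 and 36.3 and then 29.3 and 23.4 CPM in rhd6rsl1. CDT1A in ein3eil1 was at 35.7 and 38.6 CPM untreated and 24.8 and 29.8 CPM with ethylene, and in ein3eil1rhd6rsl1 at 27.6 and 27.9 and 42.2 and 38.6 CPM. The values were lower with ethylene in Col-0 and ein3eil1, overlapped in rhd6rsl1 and were higher with ethylene in ein3eil1rhd6rsl1. CDT1A had an averaged fold change of -0.61 ± 0.094 with EIN3 and EIL1 (edgeR adjusted p = 4.7e-05) and 0.05 ± 0.093 without them. The difference was -0.66 ± 0.13 (edgeR adjusted p = 0.0011), and CDT1A was the 1 replication gene called in it. PCNA1 passed the threshold as well without untreated ein3eil1rhd6rsl1 replicate 2 (-0.35) or rhd6rsl1 with ethylene replicate 1 (-0.36).

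PCNA1 and PCNA2 encode the sliding clamp of DNA polymerase. PCNA1 (AT1G07370) was at 35.4 and 36.4 CPM in untreated Col-0 and 22.3 and 24.5 CPM with ethylene, and at 28.2 and 31.7 and then 22.6 and 17.6 CPM in rhd6rsl1. PCNA1 in ein3eil1 was at 40.3 and 39.6 and then 33.9 and 35.8 CPM, and in ein3eil1rhd6rsl1 at 34.1 and 39.2 and 30.6 and 25.1 CPM. The libraries with ethylene were lower without overlap in all 4 genotypes. Its averaged fold change was -0.60 ± 0.086 with EIN3 and EIL1 (edgeR adjusted p = 2.2e-05) and -0.30 ± 0.084 without them (edgeR adjusted p = 0.04). PCNA2 (AT2G29570) was at 32.1 and 36 CPM in untreated Col-0 and 27 and 33.5 CPM with ethylene, and at 34.2 and 37 and then 25.2 and 22.1 CPM in rhd6rsl1. PCNA2 in ein3eil1 was at 39.2 and 38.3 and then 33.3 and 40.7 CPM, and in ein3eil1rhd6rsl1 at 40.2 and 51.7 and 28.3 and 26.1 CPM. The groups overlapped in Col-0 and ein3eil1, and ethylene gave the lower values in both genotypes with rhd6rsl1. Its averages were -0.38 ± 0.094 with EIN3 and EIL1 (edgeR adjusted p = 0.0034) and -0.41 ± 0.093 without them (edgeR adjusted p = 0.016), with a difference of 0.03 ± 0.13. PCNA2 shares 16.6% of its windows with an overlapping gene. For PCNA2 the groups were apart only in the genotypes with rhd6rsl1, so genotype and set cannot be told apart in that pattern. Both clamp genes were called lower in the averages with and without EIN3 and EIL1. The calls without EIN3 and EIL1 were lost without ein3eil1 replicate 1 of either treatment, ein3eil1rhd6rsl1 with ethylene replicate 2 or untreated ein3eil1rhd6rsl1 replicate 2. For PCNA1 that call was also lost without ein3eil1 replicate 2 of either treatment or either untreated Col-0 library, with the replicate number as a block, and in a fit on the compared groups alone.

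CYCA3;1 (AT5G43080), an A-type cyclin of S phase, was low: 5.31 and 4.86 CPM in untreated Col-0 and 3.56 and 4.99 CPM with ethylene, and 5.11 and 6.04 and then 3.96 and 3.86 CPM in rhd6rsl1. CYCA3;1 in ein3eil1 was at 6.23 and 4.91 and then 3.86 and 4.67 CPM, and in ein3eil1rhd6rsl1 at 4.43 and 5.17 and 4.67 and 3.55 CPM. The groups overlapped in Col-0 and ein3eil1rhd6rsl1 and were apart, lower with ethylene, in rhd6rsl1 and ein3eil1. Its averaged fold change of -0.38 ± 0.14 was called (edgeR adjusted p = 0.038). The call was lost, with adjusted p from 0.053 to 0.21, without both photosynthesis-rich libraries (0.19), without Col-0 with ethylene replicate 1 or without any 1 of the untreated Col-0 or the rhd6rsl1 libraries.

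**Figure D4:**
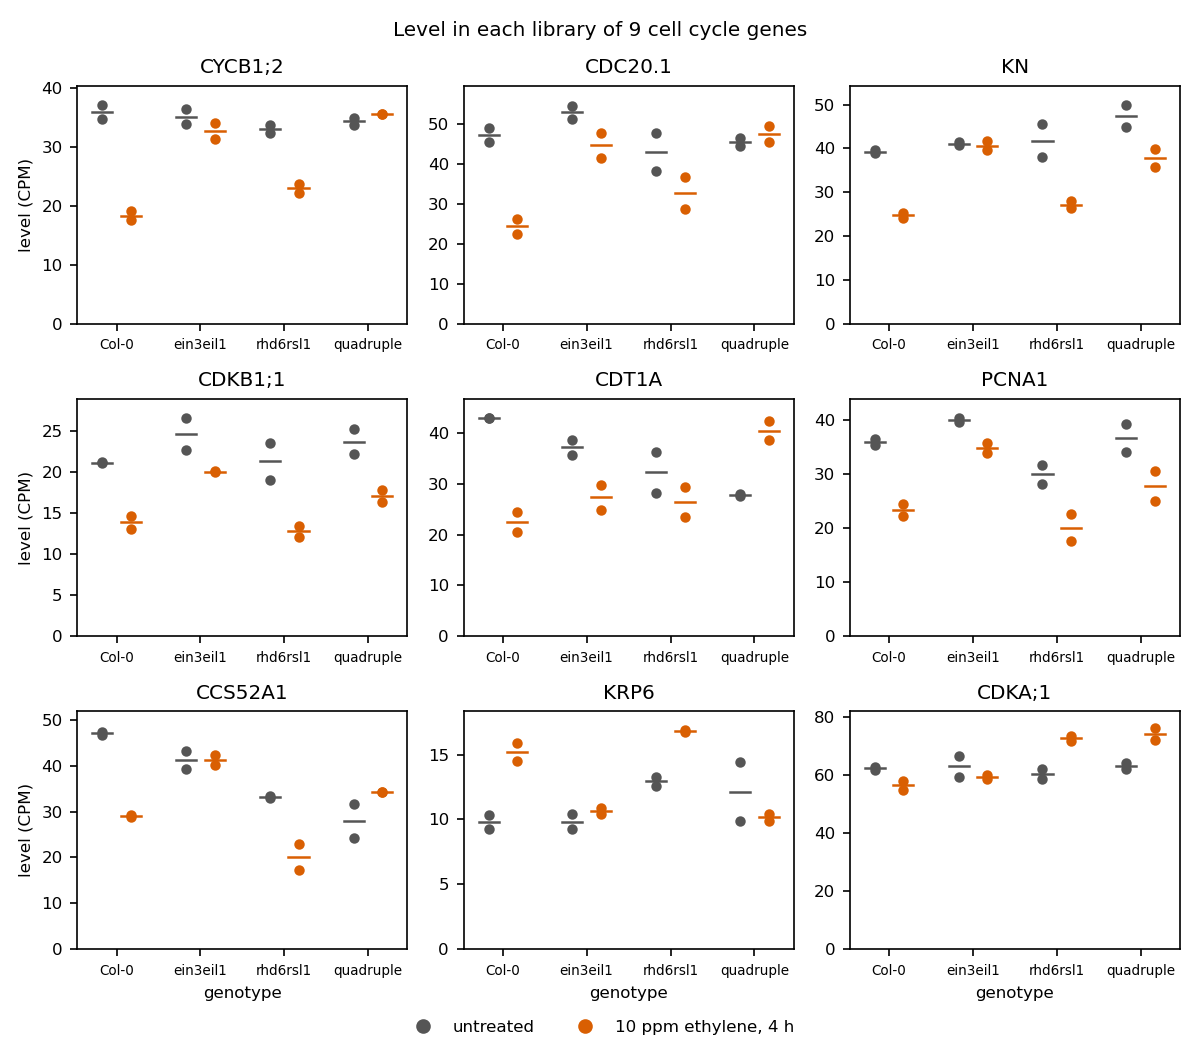
CPM of 9 of the genes in every library, with points for libraries and bars for group means, untreated and with ethylene in the 4 genotypes ("quadruple" marks ein3eil1rhd6rsl1). CYCB1;2 and CCS52A1 are lower with ethylene without overlap in Col-0 and rhd6rsl1 alone, and PCNA1 and CDKB1;1 in all 4 genotypes. KRP6 is higher without overlap in Col-0 and rhd6rsl1.

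In the E2F and WEE1 group, WEE1 was the 1 gene called in the averages. WEE1 (AT1G02970) encodes a kinase that phosphorylates CDKs and acts in the plant's DNA replication checkpoint. It was at 8.25 and 8.26 CPM in untreated Col-0 and 5.39 and 5.51 CPM with ethylene, and at 7.6 and 8.19 and then 5.52 and 4.67 CPM in rhd6rsl1. WEE1 in ein3eil1 was at 7.87 and 7.25 and then 6.53 and 7.77 CPM, and in ein3eil1rhd6rsl1 at 7.57 and 7.85 and 6.09 and 6.27 CPM. The groups overlapped only in ein3eil1, and ethylene gave the lower values in the others. WEE1 had an averaged fold change with EIN3 and EIL1 of -0.61 ± 0.096 (edgeR adjusted p = 5.6e-05) and the difference -0.42 ± 0.14 (edgeR adjusted p = 0.031). The call on the difference was lost when any 1 of 12 libraries was left out, with adjusted p from 0.052 to 0.11, with no filter on low counts (0.097) and without both photosynthesis-rich libraries (0.088). It held without ein3eil1 with ethylene replicate 1, untreated ein3eil1 replicate 1, untreated ein3eil1rhd6rsl1 replicate 2 or rhd6rsl1 with ethylene replicate 1. The activators E2FA (-0.15 ± 0.074) and E2FB (-0.09 ± 0.1) were not called in that average. E2FA fell in Col-0 (-0.50 ± 0.11) and rose in ein3eil1rhd6rsl1 (0.39 ± 0.1). It was -0.32 in ein3eil1 and 0.20 in rhd6rsl1, so genotype and set cannot be told apart.

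The G1 genes did not move together. Of the 8, averaged over Col-0 and rhd6rsl1, CYCD4;1 and CYCD3;1 fell and CYCD2;1 rose, against 22.4% of all loci tested called lower and 18.9% higher. CYCD4;1 (AT5G65420), a D-type cyclin, was at 7.25 and 8.18 CPM in untreated Col-0 and 4.32 and 5.46 CPM with ethylene, and at 7.48 and 7.52 and then 4.55 and 4.11 CPM in rhd6rsl1. CYCD4;1 in ein3eil1 was at 7.63 and 6.39 and then 6.45 and 7.71 CPM, and in ein3eil1rhd6rsl1 at 6.49 and 8.65 and 6.61 and 6.07 CPM. The groups were apart in Col-0 and rhd6rsl1, lower with ethylene, and overlapped in both genotypes without EIN3 and EIL1. CYCD4;1 had an averaged fold change of -0.72 ± 0.12 (edgeR adjusted p = 0.00012), and the difference -0.60 ± 0.17 (edgeR adjusted p = 0.014). The difference stood at an adjusted p of 0.051 without ein3eil1 with ethylene replicate 2 or without untreated ein3eil1 replicate 2, and of 0.079 without both photosynthesis-rich libraries.

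The 3 D3-type cyclins, which keep cells dividing in response to cytokinin, differed from one another. CYCD3;1 (AT4G34160) was at 15.8 and 14.2 CPM in untreated Col-0 and 11.9 and 10.1 CPM with ethylene, and at 16.6 and 14 and then 14.3 and 12.8 CPM in rhd6rsl1. CYCD3;1 in ein3eil1 was at 19.7 and 25.1 and then 17.5 and 18.5 CPM, and in ein3eil1rhd6rsl1 at 20.5 and 19.6 and 29.7 and 25.7 CPM. The 4 untreated libraries of ein3eil1 and ein3eil1rhd6rsl1 lay above the 4 untreated ones of Col-0 and rhd6rsl1. Ethylene gave lower values in Col-0 and ein3eil1, overlapping ones in rhd6rsl1 and higher ones in ein3eil1rhd6rsl1. CYCD3;1 had an averaged fold change with EIN3 and EIL1 of -0.31 ± 0.095 (edgeR adjusted p = 0.015) and the difference -0.38 ± 0.13 (edgeR adjusted p = 0.041). The first call was lost without Col-0 with ethylene replicate 2, untreated Col-0 replicate 1, rhd6rsl1 with ethylene replicate 2 or untreated rhd6rsl1 replicate 1. The second was lost when any 1 of 12 libraries or both photosynthesis-rich ones (adjusted p = 0.073) were left out, and held without Col-0 with ethylene replicate 1, untreated ein3eil1 replicate 2, ein3eil1rhd6rsl1 with ethylene replicate 2 or untreated rhd6rsl1 replicate 2.

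CYCD3;2 (AT5G67260) was at 26.6 and 25.4 CPM in untreated Col-0 and 27.4 and 35 CPM with ethylene, and at 23.2 and 27.7 and then 24.2 and 20.6 CPM in rhd6rsl1. CYCD3;2 in ein3eil1 was at 27.9 and 23.4 and then 21.4 and 24 CPM, and in ein3eil1rhd6rsl1 at 26.4 and 30.1 and 18.4 and 18.3 CPM. Ethylene gave higher values in Col-0 and lower ones in ein3eil1rhd6rsl1, and the groups overlapped in ein3eil1 and rhd6rsl1. Its averages were 0.04 ± 0.092 with EIN3 and EIL1 (edgeR adjusted p = 0.76) and -0.40 ± 0.093 without them (edgeR adjusted p = 0.019), and the difference of 0.44 ± 0.13 was called (edgeR adjusted p = 0.019). That call was lost without ein3eil1 with ethylene replicate 1 (adjusted p = 0.051) or untreated ein3eil1 replicate 1 (adjusted p = 0.054), and the fall without EIN3 and EIL1 lost its call without these, ein3eil1rhd6rsl1 with ethylene replicate 2 or untreated ein3eil1rhd6rsl1 replicate 2. CYCD3;3 was 0.27 ± 0.11 in Col-0 and -0.48 ± 0.11 in rhd6rsl1, the latter called, with an average of -0.11 ± 0.074. It was 0.18 in ein3eil1 and -0.66 in ein3eil1rhd6rsl1, so genotype and set cannot be told apart. CYCD2;1 (AT2G22490) was at 51 and 52.4 CPM in untreated Col-0 and 48.5 and 53.3 CPM with ethylene, and at 46.4 and 48.3 and then 64.5 and 60.5 CPM in rhd6rsl1. CYCD2;1 in ein3eil1 was at 48.7 and 58.7 and then 46.6 and 47.9 CPM, and in ein3eil1rhd6rsl1 at 46.8 and 49.8 and 56.3 and 55.8 CPM. It overlapped in Col-0, was lower with ethylene in ein3eil1 and higher in both genotypes with rhd6rsl1. Genotype and set cannot be told apart in this pattern. The average with EIN3 and EIL1 was 0.19 ± 0.064 (edgeR adjusted p = 0.025), at 0.051 without Col-0 with ethylene replicate 2. CDKA;1, the main CDK of the cycle, was not called in either average (0.06 ± 0.056 and 0.07 ± 0.056). CYCD6;1, a D-type cyclin of the division that forms root cortex and endodermis, had a wide error (-0.75 ± 0.3) and was not called in the average.

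Of the 7 CDK inhibitors, KRP6, KRP4 and LGO rose in the average over Col-0 and rhd6rsl1, and KRP1, KRP2, KRP3 and SIM were not called. Of all loci tested, 18.9% were called higher in that average. KRP6 (AT3G19150), an inhibitor of the KIP-related family, was at 9.27 and 10.3 CPM in untreated Col-0 and 15.9 and 14.5 CPM with ethylene, and at 13.3 and 12.6 and then 16.7 and 16.9 CPM in rhd6rsl1. KRP6 in ein3eil1 was at 9.24 and 10.4 and then 10.4 and 10.9 CPM, and in ein3eil1rhd6rsl1 at 9.87 and 14.4 and 9.89 and 10.4 CPM. The groups were apart in Col-0 and rhd6rsl1, higher with ethylene, and overlapped in both genotypes without EIN3 and EIL1. KRP6 had an averaged fold change of 0.51 ± 0.1 (edgeR adjusted p = 0.00062) and -0.07 ± 0.1 without EIN3 and EIL1, and the difference 0.58 ± 0.14 was called (edgeR adjusted p = 0.0062). KRP4 (AT2G32710) was at 17.9 and 15.9 CPM in untreated Col-0 and 19.3 and 20.3 CPM with ethylene, and at 18.1 and 15.7 and then 22.1 and 23.1 CPM in rhd6rsl1. KRP4 in ein3eil1 was at 16.3 and 17.5 and then 17.2 and 18.9 CPM, and in ein3eil1rhd6rsl1 at 18.4 and 18 and 19 and 19.2 CPM. Ethylene gave the higher values in all genotypes except ein3eil1, where they overlapped. KRP4 had an averaged fold change of 0.32 ± 0.07 (edgeR adjusted p = 0.0013), and the difference 0.24 ± 0.1 was not called in the full set. It was called without untreated Col-0 replicate 1 (0.32) or untreated rhd6rsl1 replicate 1 (0.33). KRP4 shares 34.6% of its windows with an overlapping gene.

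SIM (SIAMESE) and LGO are founding members of a plant family of CDK inhibitors that start endoreplication. LGO (AT3G10525) was at 35.5 and 34.6 CPM in untreated Col-0 and 33.1 and 35.4 CPM with ethylene, and at 27.7 and 30.7 and then 51.1 and 43.5 CPM in rhd6rsl1. LGO in ein3eil1 was at 30.6 and 33.4 and then 29.7 and 29.3 CPM, and in ein3eil1rhd6rsl1 at 27.7 and 34.9 and 49.9 and 46.8 CPM. Ethylene gave the higher values only in rhd6rsl1 and ein3eil1rhd6rsl1, the genotypes whose treated and untreated libraries carry the set letters the other way round, so genotype and set cannot be told apart. Its average of 0.33 ± 0.077 (edgeR adjusted p = 0.0022) combined -0.03 in Col-0 with 0.70 in rhd6rsl1, and the difference was 0.08 ± 0.11. SIM (AT5G04470) was at 64.8 and 63.9 CPM in untreated Col-0 and 62.9 and 59.8 CPM with ethylene, and at 77.6 and 71.7 and then 72 and 77.4 CPM in rhd6rsl1. SIM in ein3eil1 was at 61.3 and 61.3 and then 69.6 and 67 CPM, and in ein3eil1rhd6rsl1 at 68 and 75.1 and 88.1 and 101 CPM. Ethylene gave higher values in both genotypes without EIN3 and EIL1, slightly lower ones in Col-0 and overlapping ones in rhd6rsl1. Its averages were -0.03 ± 0.061 with EIN3 and EIL1 and 0.28 ± 0.061 without them (edgeR adjusted p = 0.014), and the difference was -0.31 ± 0.086 (edgeR adjusted p = 0.012). The rise without EIN3 and EIL1 lost its call without ein3eil1 replicate 1 of either treatment or ein3eil1rhd6rsl1 with ethylene replicate 2. The call on the difference was lost, with adjusted p from 0.054 to 0.082, without Col-0 with ethylene replicate 2, untreated Col-0 replicate 1, ein3eil1rhd6rsl1 with ethylene replicate 2, rhd6rsl1 with ethylene replicate 1 or untreated rhd6rsl1 replicate 1. LGO shares 28.1% of its windows with an overlapping gene, and SIM also overlaps one.

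CCS52A1 (AT4G22910), an activator of the anaphase-promoting complex that brings cells out of division at the end of the root meristem, had the largest called difference of responses of the 56 genes by size. The uncalled difference of CYCD6;1 was nearly as large (-0.85 ± 0.41). CCS52A1 was at 46.8 and 47.4 CPM in untreated Col-0 and 29.3 and 28.9 CPM with ethylene, and at 33 and 33.5 and then 23 and 17.3 CPM in rhd6rsl1. CCS52A1 in ein3eil1 was at 39.2 and 43.3 CPM untreated and 42.3 and 40.2 CPM with ethylene, and in ein3eil1rhd6rsl1 at 31.7 and 24.3 and 34.3 and 34.3 CPM. Ethylene gave the lower values in Col-0 and rhd6rsl1, overlapping ones in ein3eil1 and higher ones in ein3eil1rhd6rsl1. CCS52A1 had an averaged fold change of -0.71 ± 0.087 with EIN3 and EIL1 (edgeR adjusted p = 4.1e-06) and 0.15 ± 0.086 without them (edgeR adjusted p = 0.31), and the difference -0.86 ± 0.12 (edgeR adjusted p = 4.9e-05). Its paralog CCS52A2 was not called in any of these, with -0.08 ± 0.091, 0.01 ± 0.091 and -0.09 ± 0.13.

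Other genes of the same pathway, 49 from a list of mitotic, replication, regulatory and inhibitor genes chosen for their known role, were read in the same fit, and 48 of them were tested. Averaged over Col-0 and rhd6rsl1, 23 fell and 3 rose, against 22.4% and 18.9% of all loci tested. Of the 13 other mitosis genes 10 fell, among them the cytokinesis bundling protein MAP65-3 (-0.64 ± 0.077) and the spindle checkpoint protein BUB3.1 (-0.61 ± 0.089). Of the 10 other replication genes 7 fell, among them the origin licensing genes CDT1B (-0.75 ± 0.11) and CDC6 (-0.78 ± 0.11). Of the 17 other regulators 4 fell, CDKF;1, CKS2, CYCD4;2 and CYCD5;1, and 1 rose, DPA (0.31 ± 0.089), a partner of the E2F factors. The difference with and without EIN3 and EIL1 was called below 0 for 10 of the 48 and above 0 for 2, KRP7 (0.72 ± 0.23) and SMR2 (0.46 ± 0.17), against 15.3% and 11.2% of all loci.

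Genotypes were then compared at each treatment, where both groups belong to the same set. Without ethylene, few of these genes were called. The sums of the 19 mitosis genes given above were higher without overlap in both untreated mutants, at 450 and 463 CPM in ein3eil1 against 416 and 429 in Col-0, and at 447 and 466 CPM in ein3eil1rhd6rsl1 against 383 and 427 in rhd6rsl1. Between untreated ein3eil1 and Col-0, 1 of the 56 was called, CYCD3;1 (0.58 ± 0.13), against 2.54% of all loci called higher and 3.09% lower. This call was lost without untreated Col-0 replicate 2 or untreated ein3eil1 replicate 2. Between untreated ein3eil1rhd6rsl1 and rhd6rsl1, edgeR called 0 of the 56, against 4.33% of all loci. There, 10 genes had an unadjusted p below 0.05, 9 of them higher in ein3eil1rhd6rsl1, against 9.08% of all loci higher and 10.1% lower at that threshold, and DESeq2 called 0. Without untreated ein3eil1rhd6rsl1 replicate 1 the count was 4, with AUR2, AUR3 and PCNA2 higher and CCS52A1 lower, and without untreated rhd6rsl1 replicate 2 it was 1, CYCA1;1.

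With ethylene, the same comparisons separated the genotypes. In ein3eil1 against Col-0, 28 of the 56 genes were higher and 2 lower, against 14.1% and 11.2% of all loci, with a median log2 difference of 0.38. The 28 included 17 of the 19 mitosis genes, with a median of 0.64 over the list, and CYCB3;1 (0.47 ± 0.19) and AUR3 (-0.06 ± 0.17) were the others. Of the replication genes, MCM2, MCM3, MCM6 and PCNA1 were higher. That count of 4 was 1 without Col-0 with ethylene replicate 1 or ein3eil1 with ethylene replicate 2. KRP6 (-0.51 ± 0.14) and CYCD3;2 (-0.46 ± 0.13) were the 2 genes lower in ein3eil1. In ein3eil1rhd6rsl1 against rhd6rsl1, 26 genes were higher and 1 lower, against 17.9% and 13.1% of all loci, with a median of 0.33. These included 16 of the 19 mitosis genes, CYCD3;1 (1.03 ± 0.13), CYCD6;1 (1.56 ± 0.4) and CCS52A1 (0.77 ± 0.13), and KRP6 was again the 1 gene lower (-0.73 ± 0.15). CYCD6;1 rested on few reads, 67 and 74 in ein3eil1rhd6rsl1 against 35 and 15 in rhd6rsl1. The count of 27 was 14 without ein3eil1rhd6rsl1 with ethylene replicate 1 and 12 without rhd6rsl1 with ethylene replicate 2. The mitosis count of 16 was 8 and 6 without those libraries, and 10 without rhd6rsl1 with ethylene replicate 1.

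**Figure D5:**
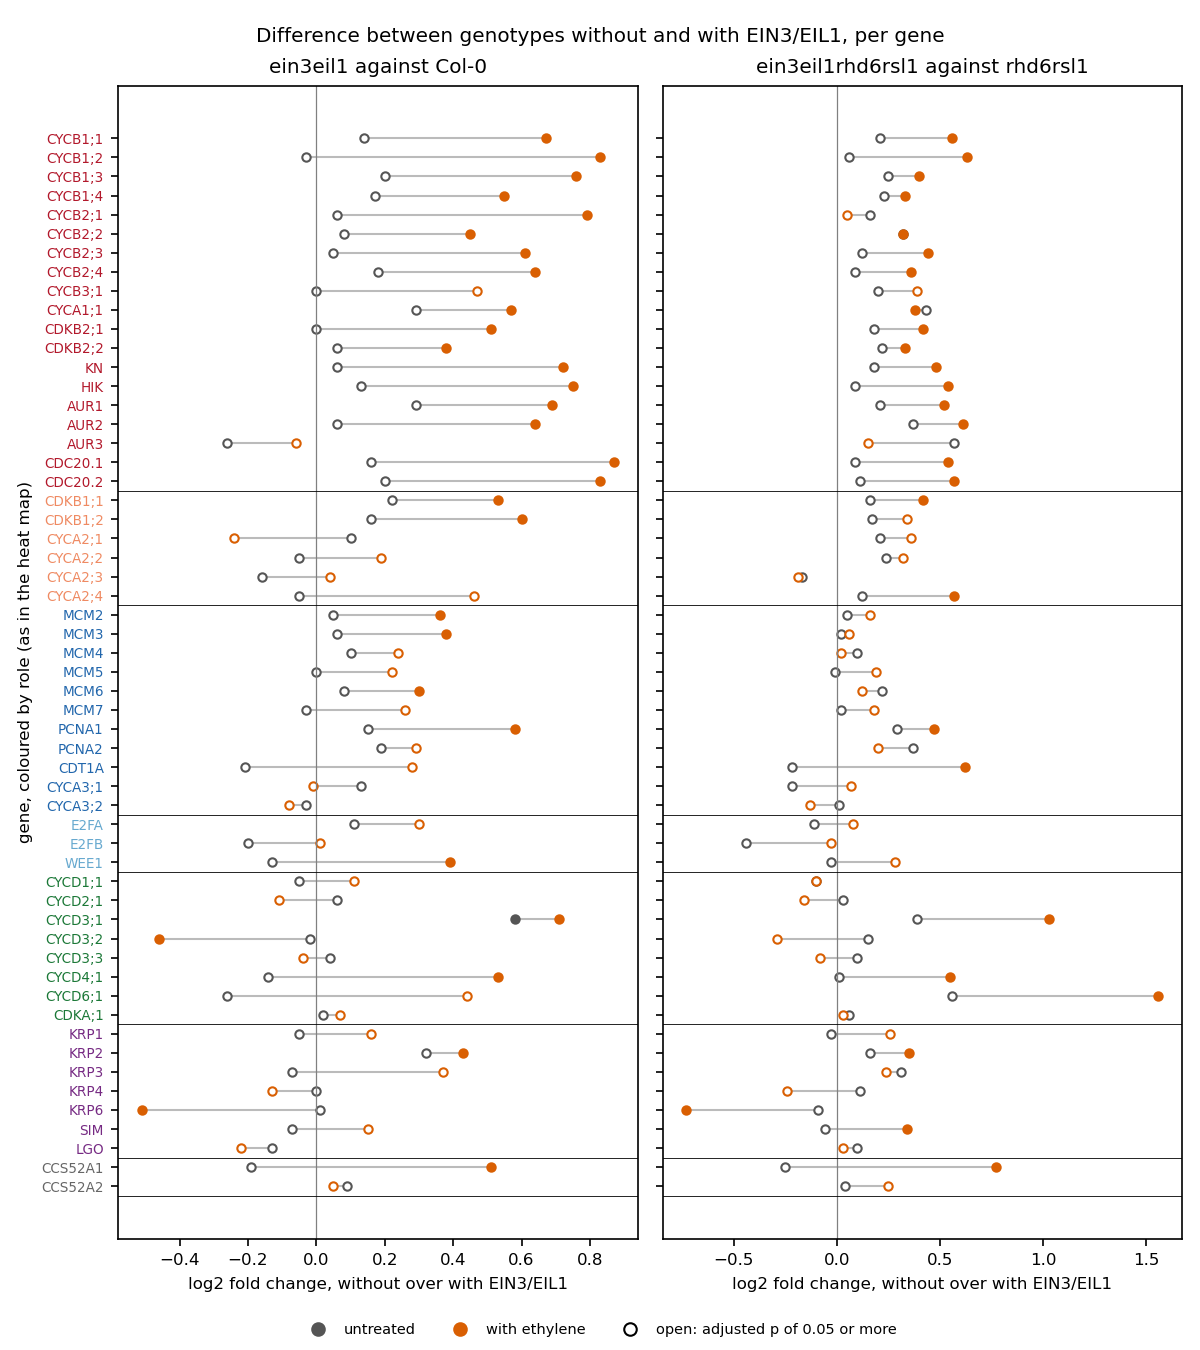
The log2 difference of ein3eil1 from Col-0 and of ein3eil1rhd6rsl1 from rhd6rsl1 for each of the 56 genes by role, untreated in grey and with ethylene in orange, with filled points for called genes. With ethylene 18 of the 19 mitosis genes lie above 0 in the first comparison (AUR3 is at -0.06) and all 19 in the second, at medians of 0.64 and 0.42, while untreated 1 gene is filled in the first comparison and none in the second.

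A smaller group differed between rhd6rsl1 and Col-0. Averaged over both treatments, 10 of the 56 genes were higher in rhd6rsl1 than in Col-0 and 1 was lower, against 10.8% and 11.5% of all loci tested. The higher ones were the cyclins CYCB1;4, CYCB2;2, CYCB2;3, CYCB2;4, CYCA2;2 and CYCD1;1, the kinase CDKB2;1, and the inhibitors KRP1, KRP2 and SIM. CYCD1;1 (0.47 ± 0.077) and KRP1 (0.43 ± 0.11) had the largest rises, and CCS52A1 was lower (-0.51 ± 0.087). Shown as log2 over the mean of untreated Col-0, some of these rises lay in 1 treatment. Untreated, CYCA2;2 was at -0.04 and -0.1 in rhd6rsl1 against 0.17 and -0.19 in Col-0. With ethylene it was at 0.28 and 0.48 against -0.54 and -0.44. KRP2 was at 0.47 and 0.47 against 0.1 and -0.11 untreated, and overlapped with ethylene. CYCD1;1 was higher at both treatments. Within 1 treatment genotype and set cannot be told apart. The 5 mitosis genes among them were 3 without Col-0 with ethylene replicate 1 or without untreated Col-0 replicate 2. In the backgrounds without EIN3 and EIL1, ein3eil1rhd6rsl1 against ein3eil1, 10 genes were higher and 1 lower, against 11.7% and 10.8% of all loci. There KRP1 was 0.49 ± 0.11, CYCD1;1 0.34 ± 0.077 and CCS52A1 -0.41 ± 0.086, each called in the same direction.

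Markers of root zones also moved between the groups. Averaged over Col-0 and rhd6rsl1, the meristem markers SHR (-0.55 ± 0.062) and PLT2 (0.69 ± 0.13) were called in opposite directions, and PLT1, WOX5 and SCR were not called. The 5 meristem markers summed to 136 and 137 CPM in untreated Col-0, against 104 and 111 CPM with ethylene. This sum was not tested as a measure of the size of the meristem, and most of it came from SCR and SHR. In untreated Col-0 replicate 1 they had 2514 and 1833 reads, against 587 for PLT1, 418 for PLT2 and 104 for WOX5. In rhd6rsl1 the 5 markers summed to 118 and 125 CPM untreated and 146 and 138 CPM with ethylene. The sum in ein3eil1 was 121 and 124 CPM untreated and 111 and 110 CPM with ethylene. In ein3eil1rhd6rsl1 it was 129 and 123 CPM untreated and 156 and 148 CPM with ethylene. This sum was thus lower with ethylene in Col-0 and ein3eil1 and higher in both genotypes with rhd6rsl1. Genotype and set cannot be told apart in that pattern. Of the root cap markers, SMB (-0.67 ± 0.15) and BRN2 (-1.31 ± 0.15) fell and BRN1 rose (0.35 ± 0.12). Of the markers of differentiating cells, GL2 (-1.40 ± 0.061), a regulator of hairless epidermal cells, fell, EXPA7, an expansin of root hairs, rose, and CASP1, VND7 and APL were not called. EXPA7 stood at 91.5 and 102 CPM in untreated Col-0 and 155 and 148 CPM with ethylene (0.64 ± 0.22, called). In rhd6rsl1 it had 0 and 2 reads untreated and 952 and 1026 reads with ethylene, and no fold is given against so few reads. The part of these shifts in the cell cycle results was not tested.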

How the data were processed

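Per the submitters' processing notes, reads were processed with BWA 0.7.7 and TAIR10. For the counting tool, its strand setting and reads with several sites, the sources used here give nothing. Each deposited table gives, per the file headers, a count, a length and an RPKM value for 39640 transcript models. The RPKM values deposited by the authors were recomputed from their counts, lengths and totals to within 3.5e-11 and were not used further. The model length in bases deposited by the authors was used for that check only.

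Counts were summed over the models of each locus (33518 loci, 4626 with 2 or more models, 7 of them among the 56) and used as deposited. The main test was edgeR 4.0.16 (R 4.3.3): filterByExpr, TMM library sizes, 8 group means over all 16 libraries, the quasi-likelihood F test and Benjamini-Hochberg adjustment over 22304 loci, with a call at adjusted p below 0.05. The common biological coefficient of variation was 0.0938. Standard errors were taken as |log2 fold change| / sqrt(F). Alternatives were DESeq2 1.42.0, DESeq2 size factors in edgeR, no filter, the first transcript model only, the compared groups only, the replicate number as a block, each library left out, and both photosynthesis-rich libraries left out.

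The groups were taken from the genotype and treatment labels. The series calls the 2 libraries of a group biological replicates, and log2 CPM correlated across loci at 0.984 to 0.992 within groups. The genes and lists were chosen with earlier results of these data known. In each role, values of all libraries are given for up to 4 called genes with the largest change in the average over Col-0 and rhd6rsl1 or in the difference with and without EIN3 and EIL1, and for up to 2 called against the role's median. Promoter windows came from RefSeq's TAIR10.1, whose annotation holds all 56 loci, 54 of them under the same symbol. The files give no coordinates, and none were converted. Shared 100-base windows were counted between transcripts of that annotation on either strand.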

Additional observations from a re-analysis of the deposited data

Results flagged for a closer look

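The ethylene response of 9 genes differed between Col-0 and ein3eil1 in edgeR's test of the difference itself, all more negative in Col-0. Of all loci tested, 7.64% were called below 0 and 4.58% above. The difference of log2 fold changes was -0.86 for CYCB1;2, -0.56 for CYCB1;3, -0.56 for CYCB2;3, -0.51 for CDKB2;1, -0.65 for KN, -0.62 for HIK, -0.71 for CDC20.1, -0.63 for CDC20.2 and -0.70 for CCS52A1. Between rhd6rsl1 and ein3eil1rhd6rsl1, 7 genes differed by the same test: CYCB1;2 by -0.57, HIK by -0.45, CDT1A by -0.83, CYCD3;1 by -0.64, KRP6 by 0.64, SIM by -0.40 and CCS52A1 by -1.02. In this second comparison 10.9% of all loci tested were called below 0 and 6.89% above. The 7 genes were no larger a share of the 56 than that. CYCB1;2, HIK and CCS52A1 are in both lists. The comparisons have separate libraries and share none.

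For 7 genes, both Col-0 libraries with ethylene lay on one side of the untreated ones and both rhd6rsl1 libraries on the other, as for 13.2% of all loci tested. The response in Col-0 minus that in rhd6rsl1 was -0.49 for CYCB2;2, -0.86 for CDKB2;1, -0.94 for CYCA2;2, -1.08 for CYCA2;3, -0.70 for E2FA, 0.75 for CYCD3;3 and -0.41 for CDKA;1. For 13 genes the same held of ein3eil1 and ein3eil1rhd6rsl1, as for 17.8% of all loci. The response in ein3eil1 minus that in ein3eil1rhd6rsl1 was -0.76 for CYCB3;1, -0.59 for CDKB2;1, -0.79 for CYCA2;2, -0.85 for CYCA2;3, -0.32 for MCM5, -0.98 for CDT1A, -0.71 for E2FA, -0.40 for CYCD2;1, -0.79 for CYCD3;1, 0.84 for CYCD3;3, -1.30 for CYCD6;1, -0.75 for LGO and 0.10 for CCS52A2, whose responses were 0.06 and -0.04. These differences were not tested. The set letters run the opposite way in the genotypes compared, so a set effect enters them at double its size and cannot be told apart from the genotype.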

How the results depend on the processing

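The limits are 2 libraries a group, set letters that run with treatment within each genotype, and single libraries that decide several counts. Of 56 genes called in either direction, leaving out each of the 16 libraries in turn gave 27 to 40 for ethylene in Col-0 (38 in all), 0 to 0 in ein3eil1 (0), 13 to 25 in rhd6rsl1 (24) and 9 to 17 in ein3eil1rhd6rsl1 (17). It gave 29 to 36 for the average over Col-0 and rhd6rsl1 (35) and 0 to 9 for that over ein3eil1 and ein3eil1rhd6rsl1 (5). For the difference of responses it gave 5 to 13 for Col-0 minus ein3eil1 (9), 3 to 6 for rhd6rsl1 minus ein3eil1rhd6rsl1 (7), 12 to 19 for their average (20) and 0 to 0 for the difference between backgrounds (0). For genotypes it gave 0 to 1 for untreated ein3eil1 against Col-0 (1) and 21 to 31 with ethylene (30), 0 to 4 for untreated ein3eil1rhd6rsl1 against rhd6rsl1 (0) and 12 to 28 with ethylene (27), 8 to 15 for rhd6rsl1 against Col-0 (11) and 9 to 11 for ein3eil1rhd6rsl1 against ein3eil1 (11). Where a left-out library leaves a group with 1, that library is assumed to vary like the other groups.

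Without the filter the count was 4 for ethylene in ein3eil1 (HIK, AUR1, CYCA2;3 and CDT1A), 8 for the average without EIN3 and EIL1, and 3 for untreated ein3eil1rhd6rsl1 against rhd6rsl1 (CYCA1;1, PCNA2 and CYCD3;1). With the compared groups alone it was 4 for ethylene in ein3eil1, 9 in ein3eil1rhd6rsl1, 4 for rhd6rsl1 minus ein3eil1rhd6rsl1 and 2 for untreated ein3eil1 against Col-0 (AUR1 and CYCD3;1). DESeq2 called 1 for ethylene in ein3eil1. Without both photosynthesis-rich libraries the count was 10 for ethylene in ein3eil1rhd6rsl1, 4 for rhd6rsl1 minus ein3eil1rhd6rsl1, 12 for the averaged difference and 15 for ein3eil1rhd6rsl1 against rhd6rsl1 with ethylene. The causes were not tested. For differences that use all 8 groups, the fit on the compared groups is the main one and was not run again.

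Same-numbered libraries of different groups correlated in their deviations at -0.08 to 0.21 (median -0.01), and 2 of 28 pairs exceeded 0.1, so the numbers do not pair them. With the replicate block the counts were 38, 0, 23 and 16 for ethylene in Col-0, ein3eil1, rhd6rsl1 and ein3eil1rhd6rsl1, and 35 and 4 for the averages with and without EIN3 and EIL1. They were 9, 7, 19 and 0 for the 4 differences of responses in the order above. For genotypes the block gave 1, 29, 0, 27, 11 and 10.

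Values that changed sign were uncalled in all cases. For CYCA3;1 the averaged difference was 0.17 without both photosynthesis-rich libraries and -0.17 to 0.07 with single libraries left out. For CYCD2;1 in Col-0 the fold change was 0.00 on the first transcript model, 0.06 without both photosynthesis-rich libraries and -0.07 to 0.06 with single libraries left out. For LGO it was 0.03 in Col-0 without both photosynthesis-rich libraries and -0.06 to 0.03 with single libraries left out, and its averaged difference was -0.01 to 0.18 with single libraries left out. With single libraries left out, CYCD3;2 ran from -0.02 to 0.15 and SIM from -0.06 to 0.03 in the average with EIN3 and EIL1, and PCNA2 from -0.06 to 0.14 in the averaged difference. The single genes counted here are those of the 56 given above with all libraries, chosen for the largest called changes. They were read in Col-0, in the average with EIN3 and EIL1 and in the averaged difference. In the first 2 of these, many left-out libraries lay outside the groups compared. With a library left out, 928 of their values kept direction and call, 59 lost and 6 gained the call and 15 changed sign. Under the other alternatives 406 kept both, 9 lost and 1 gained the call and 4 changed sign.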

Other observations

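Further CDK inhibitors of the KRP and SIAMESE-related (SMR) families, not among the 56 genes, moved in both directions. SMR3 was at 20.3 and 19.1 CPM in untreated Col-0 and 10.6 and 11 CPM with ethylene, and at 12.6 and 14 and then 5.49 and 5.29 CPM in rhd6rsl1. In ein3eil1 it was at 16.8 and 19.3 and then 16.1 and 17 CPM, and in ein3eil1rhd6rsl1 at 12 and 16.4 and 11.9 and 11.8 CPM. Its fold change averaged over Col-0 and rhd6rsl1 was -1.09 ± 0.097 (edgeR adjusted p = 7.4e-08), with a difference from the genotypes without EIN3 and EIL1 of -0.89 ± 0.13 (edgeR adjusted p = 7.5e-05). KRP7 rose in the same average by 0.58 ± 0.16, with a difference of 0.72 ± 0.23 (edgeR adjusted p = 0.027). SMR2 rose by 0.70 ± 0.12, most of it in rhd6rsl1 (1.25 ± 0.16) and little in Col-0 (0.16 ± 0.16). Genotype and set cannot be told apart in this split. SMR6 fell (-0.77 ± 0.26), and KRP5, SMR4, SMR7 and SMR8 were not called. SMR5 did not pass the filter on low counts.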
